A study of Homo sapiens with 24 samples.

Results

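A pair of RNA-binding maps of untreated HEK293 cells, a line of human embryonic kidney cells, was set side by side: eCLIP of SNRNP200 in the cytoplasmic fraction and eCLIP of CAPRIN. In eCLIP a protein is crosslinked to the RNA it touches and immunoprecipitated (IP), and the reads along each transcript are compared with those of an input library of the same lysate. Each experiment had 2 input and 2 IP libraries, so 8 of the 24 libraries of the study were used. The label of the CAPRIN libraries names neither a cell fraction nor the member of the protein family, and the protocols give the same antibody number for all proteins. Whether the 2 replicates came from separate cultures is not given in the labels, so p-values measure only the spread between these samples. The members are the windows that the authors listed as reproducibly enriched, stretches of at most 100 bases on hg38. The SNRNP200 list held 4182 windows in 1818 genes and the CAPRIN list 15831 windows in 4363 genes. Together they cover 18642 distinct windows, of 225825 in all 6 lists of the study. The lists differed in the q-value of the enrichment, taken as the higher of both replicates. Its median was 0.132 for SNRNP200 and 0.0193 for CAPRIN, and it was under 0.05 in 398 and 10080 windows.

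SNRNP200 is an RNA helicase of the U5 small nuclear ribonucleoprotein, where it separates U4 from U6 RNA and so readies the spliceosome for catalysis, a nuclear task. CAPRIN1 is a cytoplasmic protein of mRNA particles and a partner of G3BP1 in stress granules, and CAPRIN2 is its relative. The 3' UTR of an mRNA lies behind the stop codon and carries most sites for regulators of stability, place and translation, whereas the coding sequence is traversed by ribosomes.

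The depth of the libraries is unknown, since the lists give reads only within listed windows. These came to 189220 IP and 27994 input reads for SNRNP200, and to 635845 IP and 102709 input reads for CAPRIN, summed over both replicates. A median window held 30 IP and 3 input reads for SNRNP200 and 20 IP and 2 input reads for CAPRIN. The 2 CAPRIN input libraries stand apart: their summed count was an even number in 94.8% of windows, against 51.8% for the SNRNP200 input and 49.3% for the CAPRIN IP. Even sums are what 2 equal counts give, and the share of even sums was 95.8% below 10 reads and 63.5% from 100 reads upwards. Whether the 2 CAPRIN input libraries hold the same reads was not tested, because only their sums are listed. Values with the CAPRIN input halved are given for the sharing under a read minimum, the feature shares and the baseline of enrichment only. Reads were not counted by molecule here. The intervals given below treat windows as independent draws, which windows of the same transcript are not. They cover neither the counting of reads nor the spread between replicates.

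Many SNRNP200 windows were also listed in the CAPRIN map. Of the SNRNP200 windows, 1371 (32.8%, exact 95% interval 31.4% to 34.2%) were identical to a CAPRIN window, which is 8.66% of the CAPRIN list (8.23% to 9.11%). Another 520 SNRNP200 windows (12.4%) abutted a CAPRIN window, and 1006 CAPRIN windows (6.35%) abutted one of SNRNP200. No windows overlapped in part, as is the case for windows cut from a common grid. An identical window thus shows a shared stretch of at most 100 bases and not a binding site shared to the base. Within 500 bases of the other list lay 58.6% of the SNRNP200 and 23.4% of the CAPRIN windows. The identical windows held 47.6% of the IP reads of the SNRNP200 list and 15.1% of those of the CAPRIN list.

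Sharing was wider among genes than among windows. A window of both proteins was found in 1332 genes, 73.3% of the SNRNP200 genes and 30.5% of the CAPRIN genes. A further 486 genes had a window of SNRNP200 only and 3031 a window of CAPRIN only. Over the 4849 genes of either list, 27.5% were thus in both, 10.0% in the SNRNP200 list only and 62.5% in the CAPRIN list only. The overlap depended on the length of the lists: with as many CAPRIN windows as SNRNP200 windows, taken by lowest q, 15.4% of the SNRNP200 windows and 38.1% of the SNRNP200 genes were shared. In windows with at least 10 input and 20 IP reads the shares were 20.8% and 54.0%, and 8.79% and 30.3% with the CAPRIN input halved.

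The share of SNRNP200 windows found for CAPRIN was higher where the SNRNP200 input had more reads. Identical windows made up 13.3% of the SNRNP200 windows with no input read, 34.0% of those with 3 to 9 and 73.6% of those with 30 or more (exact 95% interval 65.6% to 80.6%). Among CAPRIN windows the share was 6.99% with no input read and 13.3% with 30 or more. All windows of a list share the depth of its libraries. Between the lists, input reads follow both the amount of an RNA and the depth of the library, which cannot be told apart here. The cause of the trend within a list was not tested.

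**Figure D1:**
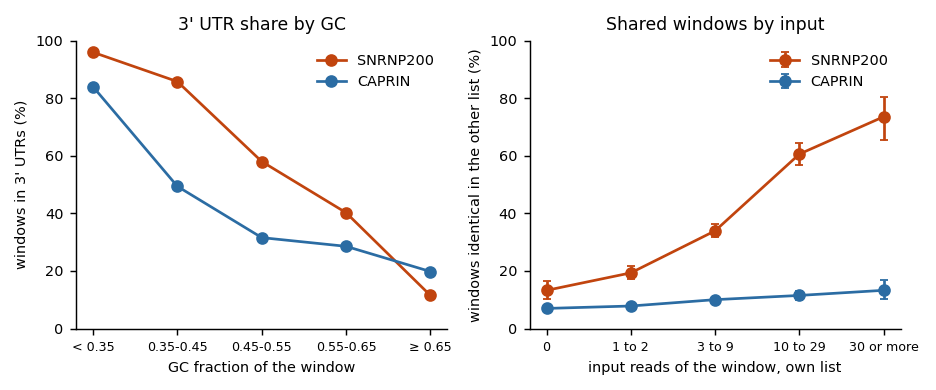
Left, share of windows in 3' UTRs (y axis, %) by GC fraction of the window (x axis), right, share of windows with an identical window in the other list (y axis, %) by input reads of the window in its own list (x axis); SNRNP200 orange, CAPRIN blue, error bars in the right panel exact 95% intervals. The SNRNP200 points of the left panel lie above those of CAPRIN in 4 of the 5 GC classes and below in the last, and in the right panel the SNRNP200 share climbs to 73.6% while that of CAPRIN stays at or below 13.3%.

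The proteins differed in the part of the mRNA they were listed on. Of the SNRNP200 windows, 67.6% lay in 3' UTRs (2825 of 4182, exact 95% interval 66.1% to 69.0%) and 20.3% in coding sequence. Of the CAPRIN windows, 34.8% lay in 3' UTRs (5503 of 15831, 34.0% to 35.5%) and 43.5% in coding sequence. Start codon windows made up 1.58% for SNRNP200 and 4.38% for CAPRIN, stop codon windows 2.87% and 4.49%, and introns 1.08% and 6.73%. 5' UTRs held 4.95% of the SNRNP200 windows (4.31% to 5.65%) and 4.34% of the CAPRIN windows (4.03% to 4.67%), with intervals that overlap. These intervals cover windows and not replicates, so the difference in share has no replicate test. Exons of small RNAs held no SNRNP200 window, which allows a share of up to 0.0717% by a floor of 3 windows, and 49 CAPRIN windows.

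The contrast held within the 1332 genes that carried both proteins. There 67.2% of 3376 SNRNP200 windows and 36.9% of 7629 CAPRIN windows lay in 3' UTRs, and 21.4% and 47.6% in coding sequence. Windows of CAPRIN that abutted an SNRNP200 window were in 3' UTRs in 65.6% of cases, close to the 68.3% of the abutting SNRNP200 windows. Those of CAPRIN that stood apart in the same genes were in coding sequence in 59.3% and in 3' UTRs in 22.9% of cases, against 21.8% and 64.6% for the SNRNP200 windows that stood apart. The identical windows are themselves part of the SNRNP200 list. Of them, 69.5% lay in 3' UTRs and 20.6% in coding sequence, shares whose intervals overlap those of the whole list. 5' UTRs held 2.48% of them (1.72% to 3.45%) and exons of long noncoding RNA 0.219% (0.0451% to 0.638%), below the 4.95% and 1.39% of the SNRNP200 list. Seen from each list, 33.7% of the SNRNP200 and 17.3% of the CAPRIN windows in 3' UTRs were identical, and 33.3% and 4.11% of those in coding sequence.

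**Figure D2:**
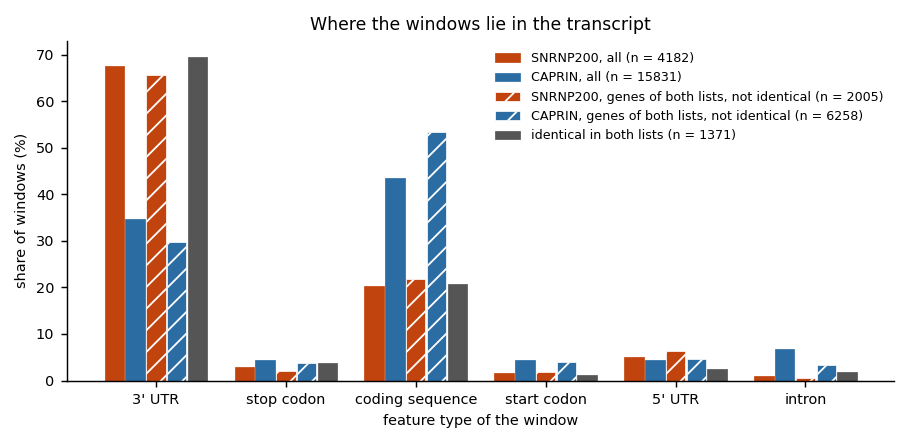
Share of windows (y axis, %) in each feature type (x axis) for all SNRNP200 (orange) and CAPRIN (blue) windows, for the windows without an identical partner in genes of both lists (hatched) and for the identical windows (grey). The 3' UTR bar is 67.6% for SNRNP200 and 34.8% for CAPRIN, and 65.6% and 29.8% among the windows that are not identical.

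Base composition moved with this difference. The median GC fraction of a window was 0.465 for SNRNP200 and 0.561 for CAPRIN, and within 3' UTRs 0.398 and 0.50. Below a GC fraction of 0.35, 96.0% of the SNRNP200 and 84.0% of the CAPRIN windows lay in 3' UTRs. Between 0.45 and 0.55 the shares were 58.0% and 31.6%, while from 0.65 upwards the order turned, at 11.5% and 19.8%. Averaged over the 5 GC classes of the SNRNP200 list, the difference in 3' UTR share was 20.8 percentage points in place of 32.8.

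Along single mRNAs, SNRNP200 tended to lie further downstream. In 931 of 1320 protein-coding genes of both lists (70.5%) the median SNRNP200 window lay downstream of the median CAPRIN window, in 310 upstream and in 79 at the same place, with a median genomic distance of 682 bases that includes introns. In 883 of these genes (66.9%) every SNRNP200 window was in the 3' UTR or at the stop codon, which held for CAPRIN in 282 (21.4%). SNRNP200 was listed on the 3' UTR or stop codon alone and CAPRIN on coding sequence alone in 63 genes, and the reverse in 6. An identical window was found in 747 of the 1332 genes, windows that only touched in 175, and separate windows in 410. Every SNRNP200 window was identical to a CAPRIN window in 418 genes and every CAPRIN window to one of SNRNP200 in 90. The median gene of both lists had 2 SNRNP200 and 4 CAPRIN windows.

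Large identical blocks were found on a few mRNAs. IRS4, an adaptor of insulin signalling, had most, with 28 identical windows among 31 of SNRNP200 and 38 of CAPRIN, 26 and 31 of them in coding sequence. A run of 1390 bases of its coding sequence (chrX:108733663-108735052, minus strand) was covered by 11 SNRNP200 and 14 CAPRIN windows, with 11 identical. The mRNA of PRPF8, the core protein of the spliceosome's catalytic centre and a binding partner of SNRNP200 in the U5 particle, followed with 27 identical windows among 31 and 67. PRKDC, the catalytic subunit of a DNA repair kinase, had 18 among 23 and 84, PARP1, which senses DNA breaks, 13 among 13 and 46, and CTNNB1, which encodes beta-catenin, 11 among 12 and 32. EIF4G1, the scaffold of the cap-binding complex, and NUCKS1, a chromatin protein, had 10 each, WDR6 9, and ZNF503 and KCTD12 8 each. The longest run touched by both proteins was 1601 bases of the stop codon and 3' UTR of PTBP1, a splicing repressor (chr19:810727-812327, plus strand), with 7 SNRNP200 and 17 CAPRIN windows, all 7 identical.

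Among the 10 genes with most identical windows, IRS4 and WDR6 had a median difference in enrichment above 0 and the other 8 one below 0. The listed enrichment is the log2 ratio of IP to input, set against that of other windows with like GC content, given for both replicates. The median of the 28 IRS4 windows was 2.57 for SNRNP200 and 2.35 for CAPRIN, and in 13 of them both SNRNP200 replicates were above both of CAPRIN, against 8 with the opposite order, a median difference of 0.45. The IP reads in these windows numbered 4022 for SNRNP200 and 1980 for CAPRIN. WDR6 had medians of 2.95 and 2.94 and a median difference of 0.23, with 2 of 9 windows above and 3 below. PARP1 had medians of 2.55 and 4.10, with SNRNP200 below CAPRIN in both replicates in 12 of 13 windows. CTNNB1 had 3.30 and 5.91, with 9 of 11 below. PRPF8 had 2.83 and 4.01, with 14 of 27 below and 0 above.

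In other genes of both lists no window of the 1 protein matched or touched a window of the other. SLC7A1, a transporter of cationic amino acids, had 12 SNRNP200 windows, all in the 3' UTR, and 1 CAPRIN window in the same UTR that came no closer than 397 bases. RBM15B and RBM15, RNA-binding proteins of the complex that methylates adenosine in mRNA, had 12 and 7 SNRNP200 windows and 1 CAPRIN window each. SLC16A1, a lactate transporter, had 9 and 1, MPRIP 8 and 4, POMK and GTF3C4 7 and 1 each, and GAS1 6 and 1. The converse was seen in GPI, an enzyme of glycolysis, with 1 SNRNP200 and 29 CAPRIN windows, and in MYH9, a myosin heavy chain, with 3 and 25. In MYH9 all 3 SNRNP200 windows lay in the 3' UTR and 17 of the 25 CAPRIN windows in coding sequence. IQGAP1 and NUP205 had 1 and 17, SERBP1 2 and 16, DNMT1, the maintenance DNA methyltransferase, 1 and 16, and PSMD3 1 and 14. The nearest windows lay only 90 bases apart in GAS1, 98 in NUP205, 100 in MYH9 and SERBP1 and 198 in GPI. In the other genes named they lay further apart, as with 4362 bases in PSMD3 and 7193 in GTF3C4.

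JUN, a transcription factor of the early stress response, showed both patterns on 1 mRNA. Of its 16 SNRNP200 windows 7 lay in the 5' UTR, 1 at the start codon and 8 in the 3' UTR, and none in coding sequence. Of its 6 CAPRIN windows 3 lay in coding sequence and 3 in the 3' UTR, and the 3' UTR windows were identical to windows of SNRNP200. The JUN windows held 3531 IP reads for SNRNP200 and 401 for CAPRIN, with 417 and 50 input reads. MCL1, an inhibitor of apoptosis, had 13 SNRNP200 windows, 11 of them in the 3' UTR, and 4 CAPRIN windows, 3 of them in coding sequence, with none identical.

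**Figure D3:**
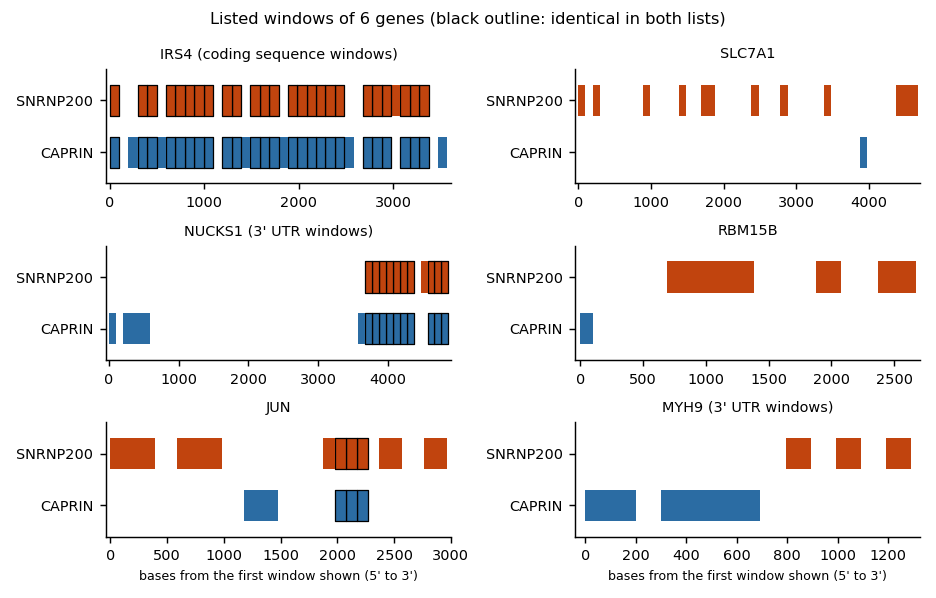
Listed windows of SNRNP200 (orange, upper row of each panel) and CAPRIN (blue, lower row) in 6 genes, by genomic distance in bases from the first window shown (x axis, 5' to 3'), for IRS4 in coding sequence only and for NUCKS1 and MYH9 in 3' UTRs only; black outlines mark identical windows. IRS4 and NUCKS1 show identical blocks, JUN shows 3 identical windows amid separate ones, and SLC7A1, RBM15B and MYH9 show separate windows.

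Among the windows in genes listed for 1 protein alone, 69.1% of those of SNRNP200 and 32.7% of those of CAPRIN lay in 3' UTRs, and 15.9% and 39.7% in coding sequence. SLIT2, a secreted axon guidance factor, led those of SNRNP200 with 17 windows, 10 of them in the 5' UTR and 5 in the 3' UTR. ADNP and E2F3, a transcription factor of the cell cycle, had 11 each, DGCR2 10, and HOXA5, RNF26, SMCR8, ZNF276, DYRK2 and DICER1, which cuts microRNA precursors, 7 each. In the 3' UTR lay 10 of 11 windows of E2F3 and all 10 of DGCR2, whereas 5 of 7 windows of DYRK2 and 4 of 7 of RNF26 lay in coding sequence. FASN, the fatty acid synthase, led those of CAPRIN with 59 windows, 53 in coding sequence, followed by TLN1, which encodes talin, with 40 and 37 in coding sequence. BAG6 had 31, INTS1 29, EEF2, the elongation factor that moves the ribosome, 28, SMARCA4 26, PHGDH of serine synthesis 24, KDM5C 23, and PPP2R1A and AP1B1 22 each. Amounts of these RNAs were not compared, and an absent window does not show absent binding.

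Gene groups differed in how far both lists met. Of 36 genes for SR and hnRNP proteins, which package and splice nascent mRNA, 30 (83.3%) were in both lists, none in the SNRNP200 list only and 6 in the CAPRIN list only, beside 27.5% in both among all genes. Their 118 SNRNP200 windows included 86 identical to one of 350 CAPRIN windows. PTBP1 had 7 SNRNP200 and 29 CAPRIN windows, HNRNPK 8 and 20, HNRNPU 6 and 19, and HNRNPM 4 and 21. Stress granule proteins were in both lists in 25 of 38 genes (65.8%), with 2 for SNRNP200 only and 11 for CAPRIN only; PRRC2A had 6 and 29 windows, DDX3X 8 and 19, and IGF2BP1 3 and 23. Actins, tubulins and actin-binding proteins were in both in 9 of 14, with 34 of 35 SNRNP200 windows identical, cytosolic heat shock chaperones in 13 of 22, and nuclear pore proteins and karyopherins in 20 of 39. Translation factors were in both in 16 of 35, core spliceosome proteins in 16 of 43 and mitosis genes in 18 of 40. CAPRIN alone was listed for 18, 27 and 22 of these genes, and SNRNP200 alone for at most 1 gene of each group.

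CAPRIN alone was also listed for most genes of 3 further groups, as it was for 62.5% of all genes. Ribosomal protein genes were in both lists in 20 of 73 cases (27.4%), in the SNRNP200 list only in 2 and in the CAPRIN list only in 51. Replication-dependent histones were in both in 11 of 46, with 35 for CAPRIN only, and nuclear genes of oxidative phosphorylation in 7 of 50, with 43 for CAPRIN only. More genes for SNRNP200 only than for CAPRIN only were found in 3 groups: deadenylation, chaperones of the endoplasmic reticulum and amino acid transporters. Of 15 genes of mRNA deadenylation, which shortens the poly(A) tail, 7 were in the SNRNP200 list only, 4 in both and 4 in the CAPRIN list only, beside 10.0% in the SNRNP200 list only among all genes. The 7 were BTG1, CNOT6L, CNOT6, TOB1, TOB2, TNRC6A and PAN3, with 1 or 2 windows each. Of 18 genes of endoplasmic reticulum chaperones and the unfolded protein response, 7 were in the SNRNP200 list only, among them PDIA4 with 3 windows and HSPA5 with 1, 5 in both and 6 in the CAPRIN list only. Short-lived regulators had 65 SNRNP200 and 54 CAPRIN windows in 21 genes, of which 8 were in both. Amino acid transporters had 25 and 18 windows in 8 genes, of which 3 were in the SNRNP200 list only, 3 in both and 2 in the CAPRIN list only, and 14-3-3 proteins had 5 and 42 windows in 6 genes, of which 3 were in both.

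**Figure D4:**
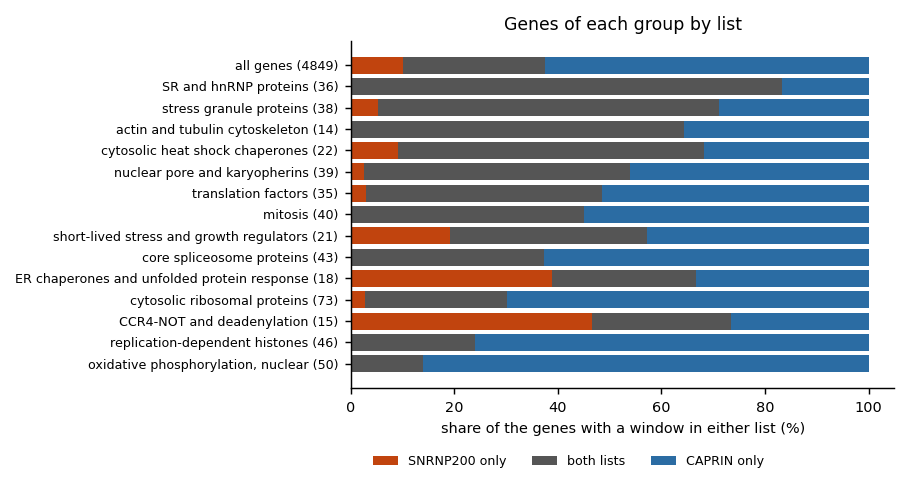
Genes of each group (number with a window in either list in brackets) that were listed for SNRNP200 only (orange), for both proteins (grey) and for CAPRIN only (blue), as a share of the genes with a window in either list (x axis, %). The grey part is 27.5% for all genes, 83.3% for SR and hnRNP proteins and 14% for oxidative phosphorylation.

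Long noncoding RNAs of the cytoplasm were in both lists in 3 of 6 genes, and those of the nucleus in 1 of 2, beside 27.5% of all genes. NORAD, a cytoplasmic RNA that binds Pumilio proteins, carried 28 SNRNP200 windows with 1919 IP reads and 1 CAPRIN window with 9 IP reads, which was identical to one of SNRNP200. In that window the replicates were 2.54 and 2.66 for SNRNP200 and 3.33 and 4.56 for CAPRIN, and the difference did not pass the test described below (limma adjusted p = 0.118). SNHG15 had 1 window of each protein, an identical one with a difference of -0.90 that did not pass (limma adjusted p = 0.3). TUG1 had 3 SNRNP200 windows and 1 CAPRIN window, which was identical, with a difference of 0.09 that did not pass (limma adjusted p = 0.911). SNHG1 had 3 SNRNP200 windows and none of CAPRIN. MALAT1, retained in the nucleus, had no SNRNP200 window and 11 CAPRIN windows, and spliceosomal snRNA had 4 CAPRIN windows in 3 genes. Among the mRNAs of the immunoprecipitated proteins, SNRNP200 had 4 SNRNP200 and 27 CAPRIN windows with 1 identical, G3BP1 had 2 and 3, CAPRIN1 had 0 and 6, and CAPRIN2 was in neither list.

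Some windows of both lists lay at the very start of mRNAs. A window over the first 30 transcribed bases was found in 28 genes for SNRNP200 and in 195 for CAPRIN. In 8 of the 28 the window was identical, beside 32.8% of all SNRNP200 windows. mRNAs of the translation machinery often begin with a run of pyrimidines, the 5' terminal oligopyrimidine tract that couples their translation to growth signals. A run of at least 5 C or T from the first base was held by 9 of the 28 genes (32.1%) for SNRNP200 and by 42 of the 195 (21.5%) for CAPRIN, and by 1425 of 27305 RefSeq genes (5.22%). The RefSeq genes were counted whether expressed in these cells or not, so their share is no background for the listed mRNAs. The first 30 bases are shown for some of the 9 SNRNP200 genes with such a run, chosen by hand, and not for the rest. For comparison, 2 identical sites without it are shown. Sequences are from RefSeq on GRCh38.p14, 5' to 3', with the leading run in capitals. RACK1 (chr5:181243877-181243906, minus strand), RPL34 (chr4:108620576-108620605, plus strand), PPP1R9B (chr17:50150648-50150677, minus strand) and KCTD12 (chr13:76886376-76886405, minus strand) had identical windows there. RPL24 (chr3:101686689-101686718, minus strand), RPL35A (chr3:197950190-197950219, plus strand) and RPL21 (chr13:27251558-27251587, plus strand) had the SNRNP200 window only.
RACK1: CTCTCTTTCactgcaaggcggcggcaggag
RPL34: CCTCTTCCggggacgttgtctgcaggtatg
RPL24: CTTTCTTTTCgccatcttttgtctttccgt
RPL35A: CTTCTCTTaccgccatcttggctcctgtgg
RPL21: CCTTTCggccggaaccgccatcttccaggt
PPP1R9B: aagcgggattaactgtttttggcagcttgg
KCTD12: actcgcctggagcgcgcgggcaaggcgggc
RACK1, RPL34, RPL24, RPL35A and RPL21 encode proteins of the ribosome. The RACK1 window held 158 SNRNP200 and 57 CAPRIN IP reads, and that of RPL34 86 and 15. The SNRNP200 windows of RPL24, RPL35A and RPL21 held 119, 56 and 29 IP reads.

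In identical windows the listed enrichment was mostly lower for SNRNP200 than for CAPRIN. Its median over the 1371 windows was 2.67 for SNRNP200 and 4.17 for CAPRIN, and the median difference was -1.34, with 203 windows (14.8%) above 0. Both replicates of SNRNP200 lay above both of CAPRIN in 65 windows and below in 917. The IP reads did not follow this order, with a median of 43 for SNRNP200 and 25 for CAPRIN, nor did the input reads, with 6 and 2. Input was 0 in 67 of these windows for SNRNP200 and in 377 for CAPRIN. The lists were normalised separately, so levels differ by their baselines as well. In windows with at least 10 input reads, 1.01 times as many input as IP reads gave a log2 of 0 for SNRNP200, and 2.09 times as many for CAPRIN, or 1.05 with the CAPRIN input halved. Windows enter this comparison only if they were enriched in both lists, so low values are cut off on both sides.

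One identical window per gene, the one with most IP reads, was tested between the proteins on the 2 replicate values of each (limma, Benjamini-Hochberg adjusted over all 728 windows). Of these, 282 passed at an adjusted p under 0.05 (38.7%), 280 with lower enrichment for SNRNP200 (38.5%) and 2 with higher (0.275%). Without overlap of the replicate ranges 492 were lower (67.6%) and 29 higher (3.98%). In the 280 windows called lower the median input was 10 reads for SNRNP200 and 2 for CAPRIN, in the 446 not called 5 and 4. The 2 CAPRIN values share an input if its libraries hold the same reads, and the spread would then be understated, which was not tested. After removal of the median difference of -1.38, 59 windows passed, 46 lower and 13 higher. Differences were also planted in simulated windows with independent noise and no shift between the lists. There the test found 10% of those of log2 1, 50% of those of log2 2 and 92% of those of log2 5.

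Of the 10 largest differences below 0, 6 lay in introns, 2 in coding sequence and 2 in 3' UTRs. DNAJC17, in an intron (chr15:40786591-40786690, minus strand), had replicates of 2.69 and 4.27 for SNRNP200 and of 10.02 and 11.37 for CAPRIN, a difference of -7.21 (SE 0.75, limma adjusted p = 0.00152). KIF2A, also in an intron, differed by -6.70 with 3.71 and 3.95 for SNRNP200 and 10.09 and 10.97 for CAPRIN. The introns of ITFG1 (-6.29), FRAS1 (-6.25), LGR5 (-5.59) and ETV5 (-5.57) followed, all without overlap of the replicates. In coding sequence H4C3, a histone H4 gene, had 1.22 and 3.49 for SNRNP200 and 8.58 and 8.84 for CAPRIN, a difference of -6.35 (SE 0.78). TUBA1B, an alpha-tubulin, had 1.96 and 2.56 for SNRNP200 and 8.29 and 8.61 for CAPRIN, a difference of -6.19 (SE 0.55). In 3' UTRs PLS3, an actin bundler, differed by -5.85 and SOD1, superoxide dismutase, by -5.71. CAPRIN input reads numbered 0 in both windows and in those of DNAJC17, KIF2A, FRAS1, LGR5, ETV5, H4C3 and TUBA1B, and 2 in ITFG1. With windows of q under 0.05 only, PLS3 had a difference of -0.99 (limma adjusted p = 0.168), and without introns KIF2A had one of -1.34 (limma adjusted p = 0.178), and neither passed. TUBA1B still passed with at least 10 input and 20 IP reads in both lists, but at -2.23. The mean over the identical windows of a gene was -4.51 in TUBA1B, -4.63 in H4C3, -4.02 in KIF2A and -3.37 in PLS3. It left the values of DNAJC17, ITFG1, FRAS1, SOD1, LGR5 and ETV5 unchanged. Reads of H4C3 and TUBA1B can be shared with near-identical copies, so their assignment is uncertain.

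Higher enrichment for SNRNP200 was called far less often than lower enrichment. GANAB, a glucosidase of the endoplasmic reticulum, had 2.87 and 2.99 in its 3' UTR for SNRNP200 and 1.18 and 1.46 for CAPRIN, a difference of 1.61 (SE 0.52, limma adjusted p = 0.0444) on 82 and 81 IP reads. A further 8 named windows had replicates without overlap but did not pass: ANKRD52 at 1.79, MAP2K7 at 1.75, ZNF638 at 1.42, HMGCS1, an enzyme of cholesterol synthesis, at 1.38, NUMA1 at 1.36, SPEN at 1.34, NCDN at 1.31 and MDC1 at 1.15. SPEN had 43 SNRNP200 and 8 CAPRIN windows, and its direction turned when the mean of its identical windows (-0.29) or windows with q under 0.05 (-2.61) were used. GANAB did not pass with either CAPRIN value left out (limma adjusted p = 0.233 and 0.244).

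**Figure D5:**
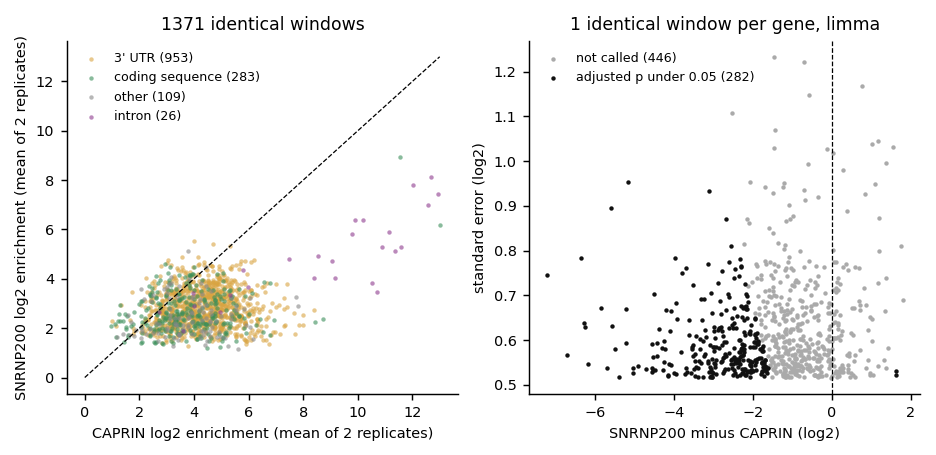
Left, listed log2 enrichment of SNRNP200 (y axis) against CAPRIN (x axis) in the 1371 identical windows, coloured by feature type, with the line of equality. Right, difference SNRNP200 minus CAPRIN (x axis, log2) and its standard error (y axis, log2) for 1 identical window per gene, with the 282 windows that passed in black; 280 of these lie left of 0 and 2 right of it, and intron windows reach log2 values above 10 for CAPRIN.

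By feature type the median difference was -1.37 in 3' UTRs, -1.07 in coding sequence, -1.13 in 5' UTRs and -4.11 in introns. Of the tested windows 205 of 546 in 3' UTRs (37.5%), 33 of 90 in coding sequence (36.7%) and 21 of 26 in introns (80.8%) passed. In the 67 genes with identical windows in both 3' UTR and coding sequence, the 3' UTR had the lower difference in 44 and the higher in 23, with a median of -0.58 between them.

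In every gene group the windows that passed were lower for SNRNP200, as were 280 of the 282 that passed among all genes. All 9 tested windows of the actin and tubulin cytoskeleton passed as lower for SNRNP200, with a median difference of -3.33, beside 38.5% lower and a median of -1.38 over all 728 windows. They are 5 tubulins, 2 actins, and the actin-binding proteins CFL1 at -4.43 and PFN1 at -3.34; reads of the actins and tubulins can be shared between near-identical copies. They ran from TUBA1B at -6.19 to TUBB4B at -1.70, and ACTB had 1.19 and 2.21 for SNRNP200 and 4.59 and 4.87 for CAPRIN. The shares of the following groups are to be read beside the 38.5% of all windows. Histones passed as lower in 6 of 9 (median -2.41), ribosomal proteins in 8 of 14 (-1.83), stress granule proteins in 8 of 16 (-1.76), mitosis genes in 5 of 11 (-1.75) and translation factors in 6 of 11 (-1.68). PABPC1, the poly(A)-binding protein, had 2.75 and 3.07 in its 5' UTR for SNRNP200 and 7.54 and 8.09 for CAPRIN, a difference of -4.91 (SE 0.54, limma adjusted p = 0.00169). RPS3 of the small ribosomal subunit differed by -4.09, EEF1G, an elongation factor subunit, by -3.56, KPNA2, a nuclear import receptor, by -3.84, and PLK1, a mitotic kinase, by -3.46. SR and hnRNP proteins passed as lower in 9 of 26 (median -1.51), core spliceosome proteins in 6 of 13 (-1.49), heat shock chaperones in 4 of 11 (-1.50), nuclear pore proteins in 5 of 11 (-1.50) and oxidative phosphorylation in 2 of 5 (-1.49). HNRNPF at -4.12, SNRPB at -3.55 and the co-chaperone STIP1 at -3.52 passed, while SRSF9 at -0.03 and SRSF2 at -0.05 did not. Each value stands for 1 window and depends on the window chosen. Over the identical windows of the 3' UTR the mean difference was -0.84 in HNRNPF, -3.82 in SNRPB and -2.20 in SRSF9. Of the short-lived regulators none of 3 passed, with JUN at 0.14 (SE 0.63, limma adjusted p = 0.888), where 2.65 and 2.86 for SNRNP200 lay within 1.91 and 3.32 for CAPRIN.

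Intron windows formed a set of their own. Only 45 SNRNP200 windows but 1066 CAPRIN windows lay in introns, with 2.13% and 19.6% of the IP reads of the list. Of the 45, 26 (57.8%) were identical to a CAPRIN window. These 26 had a median of 44.5 IP reads and 1 input read for SNRNP200, and of 530.5 IP reads and 0 input reads for CAPRIN, with median enrichments of 4.77 and 9.48. ETV5 held 743 SNRNP200 and 5691 CAPRIN IP reads, PRKCA, a protein kinase, 1000 and 3427, UBTD2 295 and 3478, and NFIA, a transcription factor, 219 and 3832. A pair of neighbouring coding sequence windows of SPIN4, a chromatin reader, was of the same kind, with 1061 and 6966 IP reads on 3 and 2 input reads. Of the 26 windows 19 were also listed for SNRNP200 in whole cells with arsenic, 4 without it, 2 for G3BP1 and 0 for cytoplasmic SNRNP200 with arsenic. Among all 1371 identical windows 13.9%, 19.99%, 22.3% and 39.0% were listed there, in the same order. Without all intron windows limma called 265 of 704, 263 lower and 2 higher.

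The identical windows recurred more often in the other maps of the study than the remaining SNRNP200 windows. Among them 22.3% (exact 95% interval 20.1% to 24.6%) were also listed for G3BP1, against 3.98% of the other SNRNP200 windows and 9.56% of the other CAPRIN windows. For cytoplasmic SNRNP200 with 500 µM arsenic the shares were 39.0%, 18.9% and 12.9%, and for SNRNP200 in untreated whole cells 19.99%, 13.4% and 28.7%. For SNRNP200 in whole cells with arsenic they were 13.9%, 7.79% and 16.5%. The identical windows had more SNRNP200 input reads, with a median of 6 against 3 over the whole SNRNP200 list. The median of the CAPRIN input was 2 both in the identical windows and over the whole CAPRIN list. RNA abundance was not measured, and its part in this comparison was not tested.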

How the data were processed

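The lists of 2 experiments, cytoplasmic untreated SNRNP200 and CAPRIN, were compared. The submitters' processing notes name fastp 0.11.5, STAR 2.7.6 and the build hg38. No source used here names the window caller. The authors summed the raw counts of input and IP reads over replicates. Enrichment was deposited on a log2 scale, IP against input within windows of like GC, with the lowest, mean and highest replicate but no replicate numbers. For p-values and q-values the authors deposited the lowest and highest over replicates, and every listed q is under 0.2. GC content was deposited as a fraction. Columns without names were identified from their values.

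Windows were matched on chromosome, start, end and strand, and those naming several genes were counted for each. Intervals are exact binomial (Clopper-Pearson, 95%). Differences in enrichment were tested with limma 3.58.1 (R 4.3.3, unpaired, two-sided, not centred), and tables were made with Python 3.11.15 and pandas 2.3.3. With 2 samples against 2 the smallest exact permutation p is 0.333. The test was tried on simulated data, where 1.14% of unchanged windows were called. Members, gene lists and tests were chosen with earlier results of these data known. Named genes were the largest differences each way among called windows or, with fewer than 10, among windows without overlap of the replicates, the genes with most identical, separate or single-list windows, and the group members with most windows; JUN and MCL1 are of the last kind, and SPIN4, NORAD's values, the group examples with limma values and the genes at transcript starts were chosen after their values were seen. Promoter table sequences are from RefSeq GRCh38.p14. No genome sequence was used here, so no window sequence is shown. A gene that the naming rule selects is not reported here.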

Additional observations from a re-analysis of the deposited data

How the results depend on the processing

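The share of SNRNP200 windows shared with CAPRIN (32.8%) was 48.5% with q under 0.05 in both lists, 15.4% with lists of equal length, 20.8% with at least 10 input and 20 IP reads and 8.79% with the CAPRIN input also halved; counting identical or abutting windows it was 45.2%, within 100 bases 50.1% and within 500 bases 58.6%. For genes (73.3%) the same first 4 settings gave 82.3%, 38.1%, 54.0% and 30.3%, and the share was 64.8% where a gene needed 2 windows and 69.7% without intron windows. The difference in 3' UTR share (32.8 points, SNRNP200 minus CAPRIN) was 34.95, 28.05, 37.7 and 43.3 under these 4 settings, 30.3 in genes of both lists, 37.5 with 1 window per gene, 34.5 weighted by IP reads, 31.0 without introns and 20.8 within GC classes. That in coding sequence (-23.2) was -28.2, -17.0 and -28.4 under the first 3, -26.2, -15.1, -15.3 and -26.1 under the next 4 and -16.3 within GC classes. Limma called 280 windows lower and 2 higher; it called 46 and 13 with the median difference set to 0, 512 and 3 over all identical windows, 55 and 1 with q under 0.05 (142 tested), 62 and 2 with the read minimum (102 tested), 291 and 5 with a variance trend and 285 and 4 with the mean over windows. Leaving out the lowest or highest value of either list gave 59 to 467 lower and 0 to 32 higher; these values are not identified replicates, their removal shifts each mean by construction, and the value left is assumed to vary like the other protein's. Of the named windows, PLS3 (-0.99, q under 0.05), KIF2A (-1.34, without introns) and GANAB (1.47 and 1.75, without either CAPRIN value) no longer passed, and SPEN turned from 1.34 to -0.29 with the mean over windows and -2.61 with q under 0.05. The settings without introns, with halved input and within GC classes were chosen after seeing the data. The cause of these changes was not tested. No paired analysis was possible because the listed replicate values carry no numbers. Depth limits windows with few input reads: 377 of the 1371 identical windows had 0 CAPRIN input reads.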

Other observations

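In all 6 lists of the study 16 windows were found. They lay in PRPF8 (3 windows), CTNNB1, EEF1G, EIF5A, H2BC18, H2BC5, HMGB1, HNRNPA1, HNRNPA2B1, PARP1, PRKDC, RPS16, STIP1 and UBA1. Over the 1371 identical windows, as a description across windows that share libraries, Spearman's rho between SNRNP200 and CAPRIN was 0.435 for IP reads, 0.405 for input reads and 0.153 for the listed log2 enrichment.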
